A study of Mus musculus with 6 samples.

Results

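The cytosolic ribosomal protein genes were examined in adult retinas of WT mice and of Trim9 KO littermates. Members were chosen by their symbols alone: probe sets of the array that name 1 gene, with a symbol of the series Rpl, Rps or Rplp followed by a number, or Rpsa. The rule found 46 genes of 18193 that the array names, read by 100 probe sets of 34945. Of these genes, 24 belong to the large subunit (44 probe sets) and 22 to the small subunit (56 probe sets). RNA of 3 WT and 3 Trim9 KO adult retinas was amplified and read on 6 Affymetrix mouse genome arrays after biotin labelling, with an array for each sample. The KO mice lack exon 1 of Trim9, a ubiquitin ligase of neurons, after Cre recombination driven by the CMV promoter, so the deletion was not limited to the retina. The WT samples came from littermates and no other allele or agent is named for either group. Age is given only as adult and sex is not stated. The design text counts 3 KO mice and speaks of WT littermates, so the samples were taken as separate animals.

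A ribosome joins amino acids in the order that a messenger RNA sets. Its small subunit reads the codons, its large subunit makes the peptide bond, and around a core of ribosomal RNA each subunit carries a set of small, mostly basic proteins that are needed in matching amounts. Their messenger RNAs are among the most abundant in almost any cell, and in vertebrates they start with a C in a run of pyrimidines, the terminal oligopyrimidine tract, through which mTOR and the binding protein LARP1 control how well they are translated. Photoreceptors renew their outer segments throughout life and rely on steady protein synthesis.

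The annotated starts carry this feature in part. RefSeq promoter windows (GRCm38.p6) were found for 40 of the 46 genes. A C at the annotated start followed by at least 4 further C or T bases, read on the strand of the gene, was present in 8 of the 40 (20%), which were Rpl14, Rpl35, Rpl38, Rplp2, Rps10, Rps18, Rps27 and Rps6. Of all 27025 genes in the same windows, 3.01% had it. An unbroken run of at least 8 C or T bases lay within the 30 bases around the start in 45% of the members and in 13.9% of all genes. The windows of 5 genes with the tract and of 2 genes without it (Rplp0 and Rps28) are shown, since these genes return in the results, with 15 bases before and 15 bases from the start onwards and with the longest run of C and T in capitals.
Rpl38 (chr11:114668565-114668594, plus strand): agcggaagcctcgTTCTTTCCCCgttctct
Rpl35 (chr2:39005117-39005146, minus strand): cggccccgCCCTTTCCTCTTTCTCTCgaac
Rps10 (chr17:27635230-27635259, minus strand): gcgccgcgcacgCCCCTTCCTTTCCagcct
Rps18 (chr17:33955651-33955680, minus strand): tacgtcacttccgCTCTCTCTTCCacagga
Rps6 (chr4:86857353-86857382, minus strand): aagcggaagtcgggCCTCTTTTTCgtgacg
Rplp0 (chr5:115559452-115559481, plus strand): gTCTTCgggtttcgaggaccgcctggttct
Rps28 (chr17:33824548-33824577, minus strand): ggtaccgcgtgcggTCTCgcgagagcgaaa
An annotated start may lie some bases from the start used in retina, and the match of these letters was read only as a description. The median log2 fold change (Trim9 KO minus WT) was 0.49 over the 8 genes with the tract and 0.10 over the 32 genes without it. The median difference between the 3 arrays with the highest and the 3 with the lowest Actb ratio, a measure of the arrays described further on, was 1.88 and 0.71 over the same genes. Neither difference was tested.

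Intensities were compared as log2(intensity + 16), and each gene was read by its brightest probe set, the group of short oligonucleotides with the highest mean over the 6 arrays. The arrays were unlike each other within a genotype. Their median intensity ranged from 218 to 807 although all had been scaled to the same trimmed mean, and Trim9 KO replicate 1 had the lowest correlations with the other arrays (Pearson's r across probe sets of 0.466 to 0.516). The ratio of the 3' to the 5' control probe set of Actb was 19.8, 9.73 and 3.42 on WT replicates 1, 2 and 3 and 2.80, 90.6 and 85.7 on Trim9 KO replicates 1, 2 and 3. The ratio for Gapdh gave another order of the arrays, from 0.905 on WT replicate 3 to 275 on WT replicate 1. The 7 measured of 8 rod markers had a mean log2 intensity of 15.19 to 16.25 on the WT and 15.03 to 15.84 on the KO arrays, and 6 of the 7 had a lower mean in KO (median log2 fold change -0.57). All 4 cone markers had a lower mean in KO (median -1.11), with a mean level of 12.34 to 14.13 on the WT and 11.69 to 12.42 on the KO arrays. Within the 3 arrays of highest and the 3 of lowest Actb ratio, the median KO minus WT was -0.18 and -0.013 for rods. For cones it was -0.22 and -1.52. The 10 measured of 12 inner retina markers had 6 lower and 4 higher means in KO (median -0.24). Of 5 lens markers 2 were lower and 3 higher, and the 2 measured red blood cell markers were higher. Intensities went down to 6.49 for Mip and 9.17 for Crygs of the lens, and to 17.0 for Hba-a1 and 29.5 for Alas2. So near the added 16, the differences of these genes are no measure of a fold. The 3 measured of 4 markers of dividing cells had a higher mean in KO (median 0.74), at 6.37 to 7.18 on the WT and 6.61 to 9.66 on the KO arrays. Their level was highest on Trim9 KO replicate 1 (9.66), and Trim9 KO replicate 3 (6.61) lay within the WT range. The intensity of Mki67 was 4.68 to 24.2 on the WT arrays, so near the added 16 that its difference is no measure of a fold. All 6 markers of the pigment epithelium, a neighbouring tissue, had a higher mean in KO, with a mean level of 10.35 to 11.03 on the WT and 10.89 to 12.37 on the KO arrays. This level was 12.37 and 12.14 on Trim9 KO replicates 1 and 3, and Trim9 KO replicate 2 (10.89) lay within the WT range. The part of all these cell types in the values of the ribosomal protein genes was not tested. Trim9 itself read, on the brightest of its 4 probe sets, 12.05, 10.80 and 10.72 on WT replicates 1, 2 and 3 and 10.56, 9.002 and 8.58 on Trim9 KO replicates 1, 2 and 3, a log2 fold change of -1.81 ± 0.99 (SE) that did not pass the test (limma adjusted p = 0.999), and on another of the 4 the KO arrays were also all below the WT arrays. Where its probe sets lie relative to exon 1 is not given in the sources used here, and a probe set outside the deleted exon does not check the labels.

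No ribosomal protein gene differed between WT and Trim9 KO retinas by the test over the whole array. The adjusted p of limma was 0.999 or above for all 46 genes and all 100 probe sets. No gene of the 18193 passed (0%). At an unadjusted p under 0.05 none of the 46 genes passed, against 2.56% of all genes. The mean was lower in KO for 21 members and higher for 25, and 44.8% of all genes had a lower mean in KO. The median log2 fold change was 0.10 over the members and 0.14 over all genes. Single members ranged from -1.84 for Rplp0 to 2.19 for Rps6, with standard errors of 0.92 to 1.56 and a median standard error of 1.04, and no member differed by more than 2 standard errors. In a bulk sample, fewer cells of a type and less RNA per cell cannot be told apart.

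**Figure D1:**
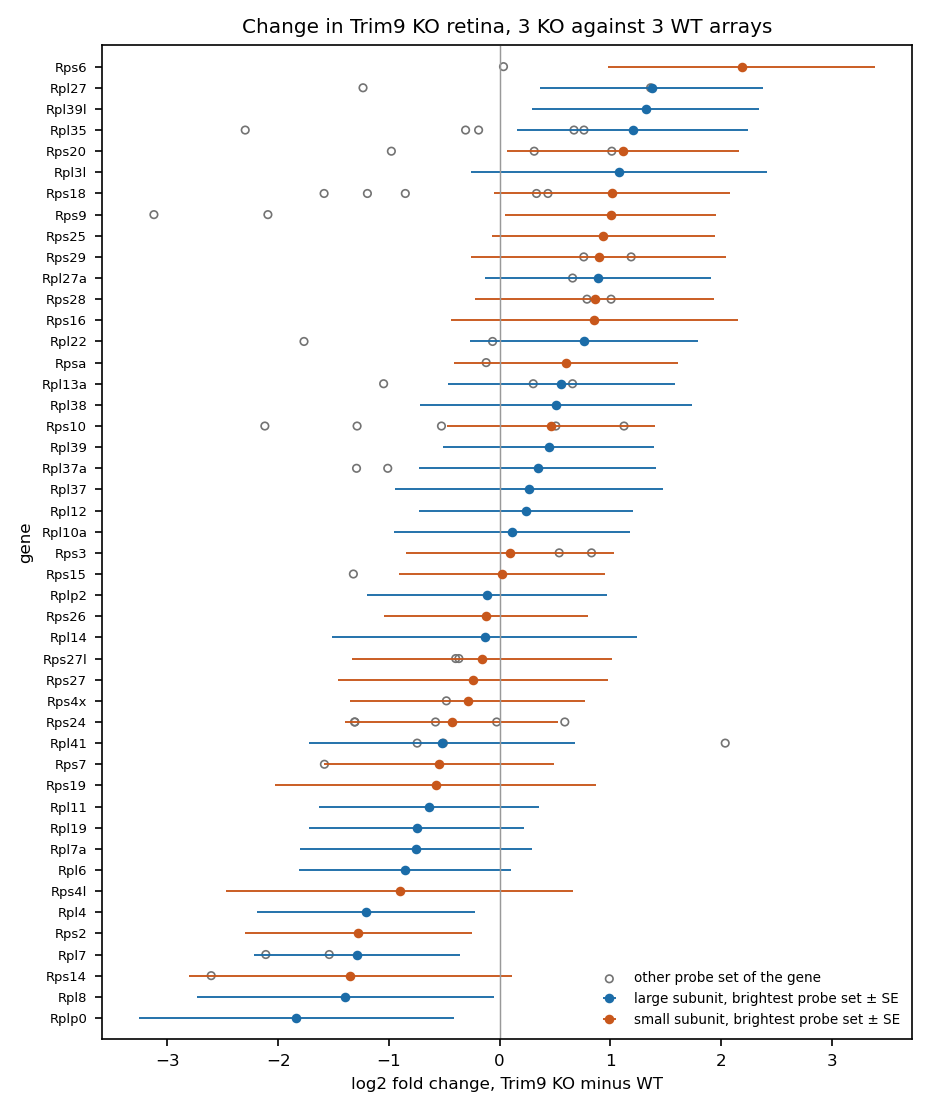
Log2 fold change (Trim9 KO minus WT, horizontal axis) of the 46 ribosomal protein genes in the order of their change, with filled points and bars for the brightest probe set ± SE (3 arrays against 3) and open points for the gene's other probe sets. The values run from -1.84 (Rplp0) to 2.19 (Rps6), large and small subunit genes are found along the whole order, and for several genes the open points lie on the other side of 0 from the filled one.

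In the plot of the fold changes the bars of most genes cross 0. The sign of the median was not stable: it was -0.14 after quantile normalization, -0.22 with equal array medians and -0.19 when all probe sets of a gene were averaged. Over all genes the median was 0.02 and -0.19 under the first pair of these scalings. Without WT replicate 1 the members' median was 0.58, and it was just below 0 without WT replicate 2 (-0.036), WT replicate 3 (-0.019) or Trim9 KO replicate 2 (-0.013).

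The genotypes separated without overlap for 2 of the 46 genes. Rpl7, a protein of the large subunit, was the only member whose KO arrays were all below the WT arrays, against 2.89% of all genes. Its log2 intensity was 15.30, 14.92 and 15.70 on WT replicates 1, 2 and 3 and 13.59, 13.61 and 14.84 on Trim9 KO replicates 1, 2 and 3. The gap between the lowest WT and the highest KO array was small beside the spread within KO. The log2 fold change was -1.29 ± 0.93 (SE). A second probe set of Rpl7 also had no overlap, with 14.67, 13.94 and 15.46 on the WT and 12.10, 11.75 and 13.88 on the KO arrays and a log2 fold change of -2.11 ± 1.01. On the third probe set the genotypes overlapped, with a log2 fold change of -1.54 ± 1.14. All 3 probe sets of Rpl7 thus had a lower mean in KO. Over all 100 member probe sets, the KO arrays were all below the WT arrays for 3 (3.06% of all probe sets naming 1 gene) and all above for 1 (4.92%).

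Rps6, the small subunit protein that S6 kinase phosphorylates when mTOR is active, was the only member whose KO arrays were all above the WT arrays, against 5.35% of all genes. It read 11.23, 6.68 and 10.09 on WT replicates 1, 2 and 3, and 11.56, 11.43 and 11.58 on the Trim9 KO arrays in the same order. The KO arrays were almost equal, and the difference came mainly from WT replicate 2, which was far below every other array, while WT replicate 1 was close to the KO arrays. The mean was 9.33 ± 2.37 in WT and 11.52 ± 0.078 in KO (SD, n = 3), and the log2 fold change was 2.19 ± 1.21 (SE). Without WT replicate 2 the log2 fold change was 0.86. The other probe set of Rps6 had a log2 fold change of 0.04. For Rpl7 and Rps6 the exact permutation test over the arrays gave the smallest two-sided p that 3 against 3 arrays allow, 0.1, as it does for every gene without overlap.

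**Figure D2:**
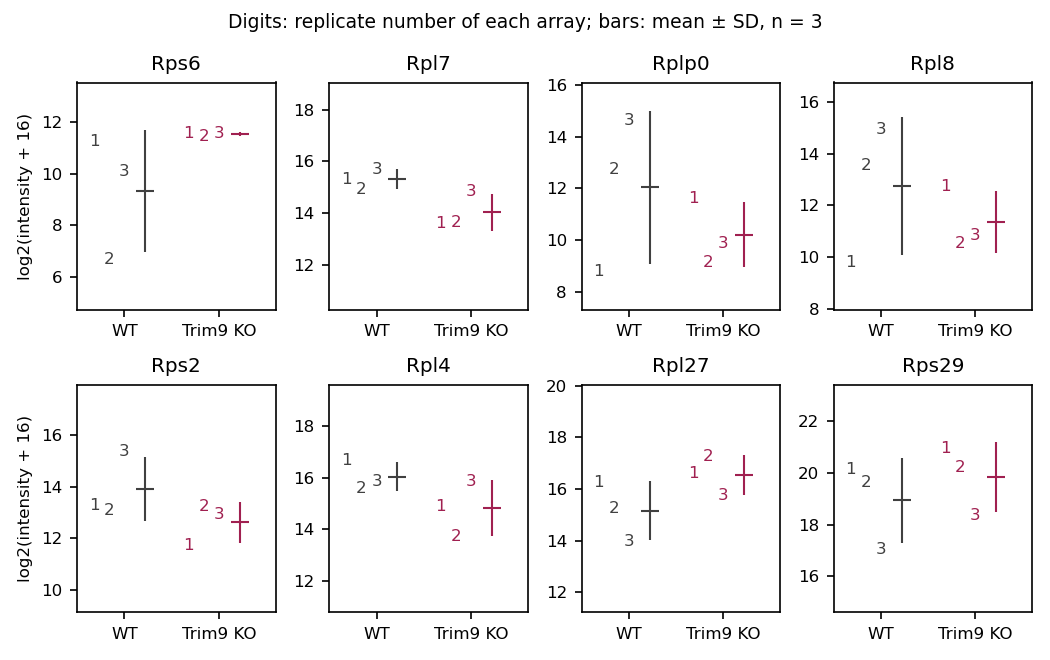
Log2(intensity + 16) of 8 ribosomal protein genes in WT and Trim9 KO retinas, with each array drawn as its replicate number and the bars giving mean ± SD (n = 3), on vertical axes of equal length. Rps6 and Rpl7 show no overlap between the genotypes, whereas for Rplp0 and Rpl8 WT replicate 1 lies below all KO arrays and WT replicates 2 and 3 lie above all of them.

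The stalk of the large subunit, which recruits the translation factors that hydrolyse GTP, is built of Rplp0 at its base and of the acidic proteins Rplp1 and Rplp2. Rplp0 had the lowest log2 fold change of all members, -1.84 ± 1.42 (SE). It read 8.77, 12.71 and 14.61 on the WT arrays and 11.59, 9.14 and 9.85 on the KO arrays, so the WT arrays alone spanned the whole range of the KO arrays. Rplp2 read 17.77, 14.76 and 15.69 in WT and 14.92, 16.15 and 16.81 in KO, a log2 fold change of -0.11 ± 1.08. The array order of the 2 genes was opposed: WT replicate 1 was the dimmest array for Rplp0 and the brightest for Rplp2. Rplp1 is named on this array only together with other genes.

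Rpl8 reaches towards the peptidyl transferase centre, where the peptide bond is made. The 6 arrays fell in the same order as for Rplp0, with 9.79, 13.55 and 14.91 on the WT and 12.73, 10.51 and 10.84 on the KO arrays and a log2 fold change of -1.39 ± 1.34 (SE). Rpl11, which binds the 5S ribosomal RNA and, when ribosome assembly fails, the p53 inhibitor Mdm2, read 14.24, 13.57 and 14.82 in WT and 12.54, 13.37 and 14.80 in KO. Its log2 fold change was -0.64 ± 0.99, and the genotypes overlapped widely.

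The tunnel through which the new peptide leaves is lined or surrounded at its opening by 5 members, of which 2 had a lower and 3 a higher mean in KO (median 0.44). Rpl4, whose long loop lines the tunnel wall, read 16.67, 15.60 and 15.85 on WT replicates 1, 2 and 3 and 14.90, 13.72 and 15.88 on the KO arrays, a log2 fold change of -1.21 ± 0.98 (SE). Trim9 KO replicate 3 lay above WT replicates 2 and 3, so the genotypes overlapped. Rpl19 read 15.13, 14.59 and 15.40 in WT and 13.83, 13.53 and 15.51 in KO, with a log2 fold change of -0.75 ± 0.97, and here Trim9 KO replicate 3 was the brightest array of all. Rpl22 and Rpl35 near the tunnel opening had a higher mean in KO on their brightest probe sets, with log2 fold changes of 0.76 ± 1.03 and 1.20 ± 1.04. For Rpl35 WT replicate 3, at 14.35, was far below the other 5 arrays, which read from 16.25 to 17.92.

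Along the path of the messenger RNA through the small subunit sit 8 members. Their median log2 fold change was 0.057, with 3 lower and 5 higher means in KO. Rps2, at the entry of the channel, read 13.29, 13.09 and 15.35 in WT and 11.73, 13.25 and 12.92 in KO. WT replicate 3 was the brightest and Trim9 KO replicate 1 the dimmest array, and the log2 fold change was -1.28 ± 1.02 (SE). Rps14, beside the exit of the channel, read 10.62, 15.43 and 15.56 in WT and 14.54, 12.10 and 10.92 in KO, a log2 fold change of -1.35 ± 1.46 across overlapping genotypes. Rps9, which shapes the entry of the channel together with Rps2, had a log2 fold change of 1.004 ± 0.95 on its brightest probe set, from 15.99, 14.95 and 14.16 in WT to 15.71, 16.53 and 15.87 in KO. Rps28, at the channel exit, read 19.28, 17.19 and 16.13 in WT and 18.19, 19.28 and 17.70 in KO, with a log2 fold change of 0.86 ± 1.08.

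Rpl6, a large subunit protein, completed the 8 lowest members together with Rplp0, Rpl8, Rps14, Rpl7, Rps2, Rpl4 and Rps4l. It read 14.73, 14.88 and 15.09 on the WT and 15.18, 13.10 and 13.86 on the KO arrays, a log2 fold change of -0.85 ± 0.96 (SE). Trim9 KO replicate 1 was the brightest array and Trim9 KO replicate 2 the dimmest, so the KO arrays enclosed all WT arrays. Rpl27, among the 8 highest, is mutated in some patients with Diamond-Blackfan anaemia, in which too few red blood cells form. It read 16.26, 15.25 and 13.97 in WT and 16.60, 17.27 and 15.74 in KO, a log2 fold change of 1.37 ± 1.01. Only WT replicate 1 lay within the KO range.

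Of the members, 11 belong to the genes mutated in Diamond-Blackfan anaemia, with 6 lower and 5 higher means in KO and a median log2 fold change of -0.12. Rps29 read 20.13, 19.65 and 17.05 in WT and 20.96, 20.22 and 18.34 in KO, a log2 fold change of 0.89 ± 1.15 (SE), with replicate 3 the dimmest array of each genotype. Rps7, whose mouse mutants have skeletal and pigment defects, read 18.41, 16.35 and 15.995 in WT and 16.29, 15.56 and 17.27 in KO, a log2 fold change of -0.55 ± 1.04. WT replicate 1 was the brightest array for Rps7.

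Of a chosen list of 6 genes known from mouse mutants, 5 are members, with 2 lower and 3 higher means and a median of 0.51. Rpl38, needed for the patterning of the axial skeleton and mutated in Tail-short mice, read 19.65, 16.40 and 16.45 on the WT and 16.35, 19.60 and 18.07 on the KO arrays. The arrays fell into 2 sets that cut across genotype, WT replicate 1 with Trim9 KO replicates 2 and 3 at 18.07 to 19.65 and the others at 16.35 to 16.45. The log2 fold change was 0.51 ± 1.23 (SE). Rps20, mutated in dark-skinned mice, had a log2 fold change of 1.11 ± 1.05, from 18.50, 16.74 and 15.69 in WT to 18.41, 18.64 and 17.22 in KO. Rpl27a, mutated in the sooty foot ataxia mouse, read 12.63, 10.24 and 11.27 in WT and 11.39, 13.08 and 12.34 in KO, a log2 fold change of 0.89 ± 1.02.

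As reference genes in quantitative PCR, 4 members are in common use, Rplp0 among them. Their levels varied between these arrays: Rplp0 spanned 5.83 on the log2 scale over the 6 arrays, Rps18 2.81, Rpl13a 2.76 and Rpl19 1.98. Rpl13a read 18.60, 15.84 and 16.36 in WT and 17.25, 17.74 and 17.48 in KO, a log2 fold change of 0.56 ± 1.02 (SE). Rps18 read 17.23, 14.75 and 14.63 in WT and 15.67, 17.44 and 16.53 in KO, a log2 fold change of 1.01 ± 1.07. None of the 4 differed between genotypes beyond the spread of the replicates.

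Paralogues make up 4 members, and they replace or accompany a core protein in certain tissues. Rpl39l, best known from testis, read 7.74, 8.26 and 6.17 in WT and 9.87, 8.07 and 8.19 in KO, a log2 fold change of 1.32 ± 1.02 (SE), with Trim9 KO replicate 1 brightest. Rpl3l, the form of striated muscle, read 6.37, 7.63 and 5.83 in WT and 9.71, 8.79 and 4.57 in KO. Rps4l read 5.35, 7.13 and 11.16 in WT and 9.57, 5.96 and 5.39 in KO, highest on WT replicate 3 and Trim9 KO replicate 1. The intensity before the log scale was below the median of its array on 5 of 6 arrays for Rpl3l and for Rps4l, and went down to 7.74 for Rpl3l and 24.7 for Rps4l, so near the added 16 that their fitted log2 differences (1.08 ± 1.33 and -0.90 ± 1.56) are no measure of a fold. Detection calls were not used here, and whether these 2 genes were above background is not known. Rpl39l was below the array median on 4 of 6 arrays. Rps27l, a target of p53, read 15.001, 12.50 and 12.87 in WT and 11.35, 13.69 and 14.85 in KO, and its log2 fold change of -0.16 ± 1.18 was near 0. Rpl3l and Rps4l had the widest spread of the 4 and Rps4l the largest standard error of all 46 members.

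The other 19 members ranged in log2 fold change from -0.76 ± 1.04 (SE) for Rpl7a to 0.93 ± 1.01 for Rps25. Rps26, at the exit of the messenger channel, had the narrowest range, with 15.35, 15.16 and 14.41 in WT and 14.31, 14.93 and 15.30 in KO, and its log2 fold change was -0.12 ± 0.92. Rps15, near the decoding site, was nearest to 0, at 0.024 ± 0.93. Rps19, the gene most often mutated in Diamond-Blackfan anaemia, read 8.86, 12.72 and 13.89 on the WT and 12.77, 12.03 and 8.94 on the KO arrays, and WT replicate 1 with Trim9 KO replicate 3 lay far below the rest. For Rpl14 both of these arrays were above WT replicates 2 and 3, with 10.997, 9.70 and 8.66 in WT and 6.40, 11.12 and 11.43 in KO. Rps16 read 4.16 to 6.68 on 5 of the 6 arrays and 8.63 on Trim9 KO replicate 1, and was below the array median on all 6. Its intensity went down to 1.88 on WT replicate 3, so its log2 fold change (0.86 ± 1.29) is no measure of a fold. Whether this probe set of Rps16 was above background is not known. The mean of 42 of the 46 members was above the median of all probe sets.

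The change of large subunit genes differed from that of small subunit genes by less than the spread between arrays. The median log2 fold change was 0.18 over the 24 large subunit genes (11 lower and 13 higher means in KO) and 0.057 over the 22 small subunit genes (10 lower and 12 higher), so that the large subunit median was higher by 0.12. On single arrays the deviation of each gene from its own mean over the 6 arrays was taken, and the median over small subunit genes was subtracted from that over large subunit genes. The result was 0.36, -0.046 and -0.15 on WT replicates 1, 2 and 3 and -0.64, 0.29 and 0.47 on Trim9 KO replicates 1, 2 and 3. Its mean was 0.055 ± 0.27 in WT and 0.042 ± 0.59 in KO (SD, n = 3). Leaving out WT replicate 2, WT replicate 3, Trim9 KO replicate 2 or Trim9 KO replicate 3 turned the sign of the difference in medians, to -0.45, -0.41, -0.31 and -0.58. The difference between the subunits thus varied far more between arrays of a genotype than between genotypes.

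**Figure D3:**
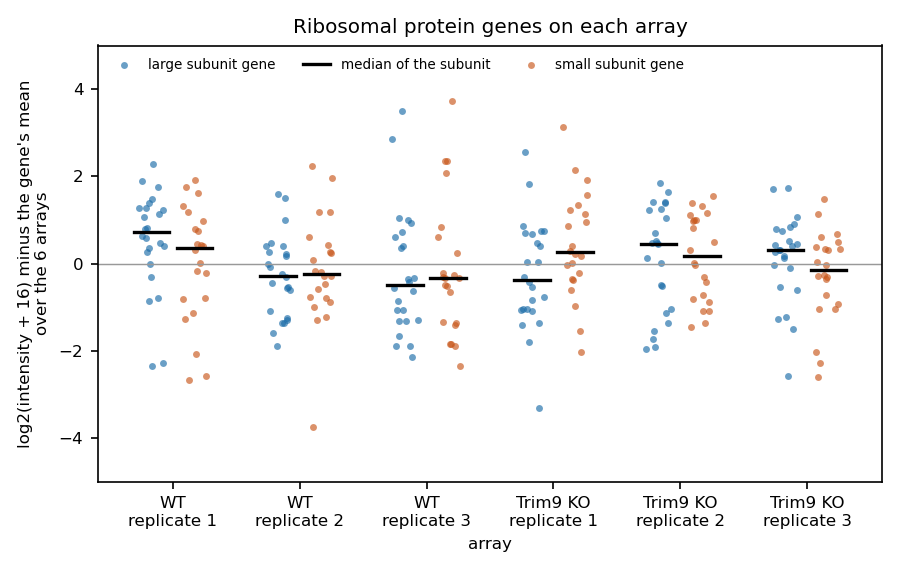
Log2(intensity + 16) of each ribosomal protein gene minus its own mean over the 6 arrays (vertical axis), by array, with large subunit genes in blue, small subunit genes in orange and a black bar at each median. The large subunit median is highest on WT replicate 1 (0.72) and lowest on WT replicate 3 (-0.49), and Trim9 KO replicate 1 is the array on which the 2 subunits lie furthest apart (-0.37 against 0.26).

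All members together deviated by a median of 0.46, -0.27 and -0.39 on WT replicates 1, 2 and 3 and by 0.042, 0.38 and 0.23 on Trim9 KO replicates 1, 2 and 3. The mean was -0.068 ± 0.46 in WT and 0.22 ± 0.17 in KO (SD, n = 3), and the KO arrays lay within the WT range. As the plot by array shows, WT replicate 1 differed from the other WT arrays by more than the genotypes differed. Single genes spanned a median of 2.98 on the log2 scale over the 6 arrays, from 1.03 for Rps26 to 5.83 for Rplp0.

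The members were also described by the Actb 3' to 5' ratio of the arrays, the 3 highest being those of Trim9 KO replicates 2 and 3 and WT replicate 1. This division was chosen after the values were seen, so its counts are a description and are not to be set against those of the genotypes. Of the 46 genes, 14 had all of these 3 arrays above the other 3 (11.9% of all genes did) and 9 had them all below (10.3% of all genes). Among the 100 probe sets the counts were 22 above (8.59% of all probe sets naming 1 gene) and 27 below (12.1%). Probe sets of a gene share a target and are not independent of each other. Of the large subunit genes 10 were above and 4 below, and of the small subunit genes 4 were above and 5 below. The part of RNA quality in these patterns was not tested.

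Rplp0, Rpl8 and Rps14, among the members with the lowest fold changes, were all dimmer on the 3 arrays with high Actb ratios, with differences of -3.71, -3.36 and -3.96 between the means. Those with the opposite order included Rpl38, brighter by 2.70, and Rps18, brighter by 2.05. Comparing genotypes within each set of 3 arrays changed the sign for several genes. Rplp0 differed by 0.72 (KO minus WT) within the high ratio set and by -2.07 within the low ratio set, and Rpl8 by 0.89 and -1.50. Rpl4, whose genotypes overlapped, kept its direction, at -1.87 and -0.82. Rpl7 differed by -1.07 and -1.71, and Rps6 by 0.27 and 3.17. The genotypes of Rpl7 and Rps6 did not overlap, so the sign of their differences was fixed for any division of the arrays. Among all members, 14 were lower in KO within both sets and 12 were higher within both. These counts were not made over all genes, so they are no result about the members. In each set a genotype is represented by a single array, so these within-set values have no replicate error. The median over the members was -0.15 within the high ratio set and 0.10 within the low ratio set. With the set of arrays as a block in limma, no member passed the test.

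Probe sets of the same gene often disagreed. Of the 23 genes with more than 1 probe set, 13 had log2 fold changes of both signs and 17 had both signs of the difference between the 2 sets of arrays. The same counts were not made for other genes of the array, so they are no trait particular to the members. Some signs rest on dim probe sets: the only positive one of Rpl41 had an intensity of 6.97 on WT replicate 1. The gap between the highest and the lowest log2 fold change of a gene had a median of 1.63, from 0.19 for Rps4x to 4.13 for Rps9. Rps9 had 1.004 ± 0.95 on its brightest probe set and -3.12 ± 1.54 and -2.09 ± 1.12 on the others (SE). Rps18 had 6 probe sets, and on the second brightest all KO arrays were below all WT arrays (14.66, 14.79 and 14.86 in WT and 13.50, 13.80 and 14.46 in KO), opposite to the sign of the brightest. Rpl35 ranged from -2.30 to 1.20 over its 6 probe sets and Rps10, a small subunit protein at the head of the subunit, from -2.12 to 1.12. Rpl7, Rps28, Rps29, Rps27l and Rps3 had the same sign on all of their 3 probe sets.

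**Figure D4:**
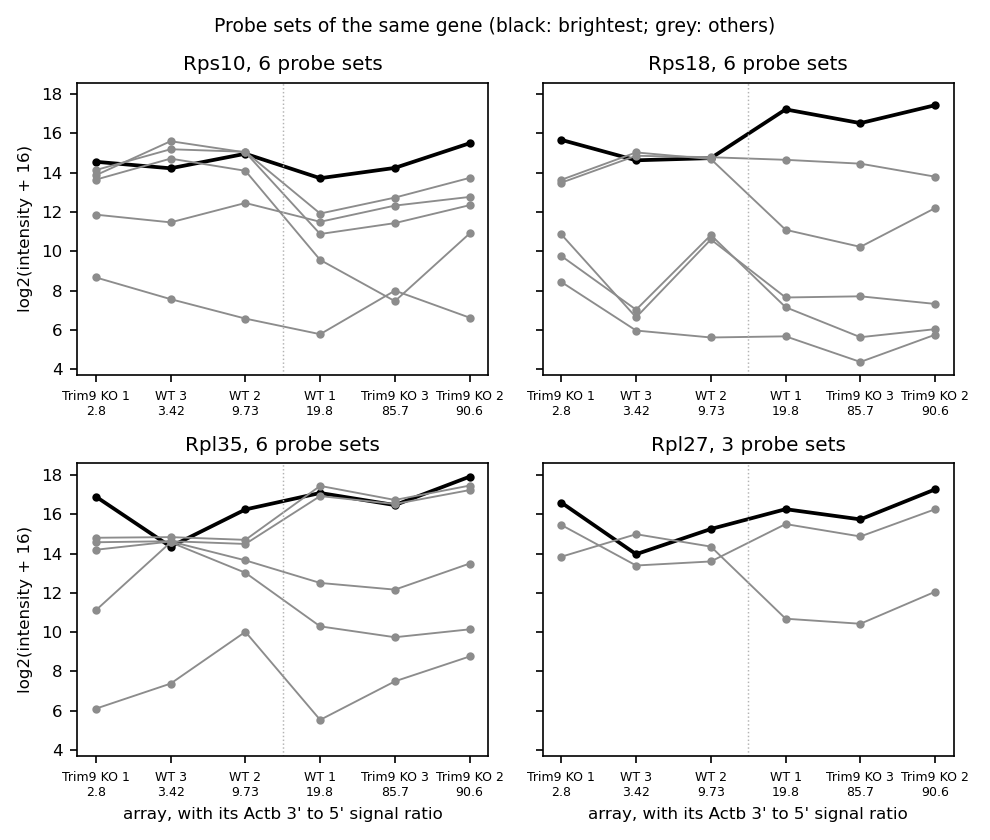
Log2(intensity + 16) of every probe set of Rps10, Rps18, Rpl35 and Rpl27 on the 6 arrays, which stand along the horizontal axis in the order of their Actb 3' to 5' ratio (the number under each array, 2.80 to 90.6); the black line is the brightest probe set and the dotted line divides the 3 low from the 3 high ratios. Lines of the same gene part to the right of the dotted line, where some probe sets are brighter and others dimmer than to its left.

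The plot of probe sets shows this for Rpl27, whose dimmest probe set read 13.84 to 14.99 on the 3 low ratio arrays and 10.43 to 12.06 on the 3 high ratio arrays, while the second brightest was at 13.39 to 15.46 and 14.87 to 16.26. For Rps10, the probe set with the widest range read 9.56, 14.10 and 14.72 on WT and 13.65, 10.91 and 7.46 on KO arrays, whereas the brightest stayed between 13.72 and 15.50. Of the member probe sets 40% carry the suffix _x_at, which marks probes shared with other sequences, against 5.83% of all probe sets that name 1 gene. Their median difference between the high and the low ratio arrays was 0.86, against -0.80 for the 31 member probe sets with the plain suffix _at and -0.47 over all probe sets naming 1 gene. For the 26 with the suffix _a_at it was -0.074. Each kind went both ways: the high ratio arrays were all above the others for 11 and all below for 12 of the 40 _x_at probe sets. For the plain suffix the counts were 6 and 6, and for _a_at 4 and 9. Ribosomal protein genes have many processed pseudogenes with near-identical sequence, and 110 further probe sets name such a gene only together with others, among them all probe sets of 28 genes such as Rpl32 and Rplp1. Levels of single members are therefore uncertain where probes are shared. These 110 probe sets had a median log2 fold change of 0.20, with 48 lower means in KO, 4 without overlap and lower in KO (3.06% of all probe sets naming 1 gene) and 1 without overlap and higher (4.92%).

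Genes that work with the ribosome were read from lists for comparison, and none of their members passed the test. Ribosomal proteins under other names (Fau, Rpl22l1 and Rpl7l1, the 3 measured of 7) had lower means in KO, with a median log2 fold change of -0.52. Of 76 mitochondrial ribosomal protein genes, whose products make the separate ribosome of mitochondria, 49 had a lower mean (median -0.34), and the KO arrays were all below the WT arrays for none (2.89% of all genes) and all above for 2 (5.35%). The 37 translation factors measured had a median of -0.29, and for 6 of them the KO arrays were all below the WT arrays (2.89% of all genes), while for none were they all above (5.35%). Among these were Eif3l, a subunit of the initiation factor that binds the small subunit, at -2.29 ± 1.13 (SE), and Eif4b, a cofactor of the initiation helicase, at -2.004 ± 1.19. For both, Trim9 KO replicate 1 was by far the dimmest array, at 6.96 for Eif3l and 9.33 for Eif4b.

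Ribosome assembly factors had 19 lower and 19 higher means and a median of -0.05, and Nop56, a protein of the particles that methylate ribosomal RNA, stood at -2.81 ± 1.29. It too was dimmest on Trim9 KO replicate 1, at 6.22 against 10.40 to 12.46 on the others. The 15 genes around mTOR and LARP1 had 9 lower and 6 higher means and a median of -0.29. Mtor itself read 12.44, 12.42 and 12.46 in WT and 9.70, 11.54 and 12.65 in KO, a log2 fold change of -1.14 ± 1.02, and the inhibitor Tsc2 had -3.10 ± 1.18, with genotypes that overlapped. The difference between these lists and the ribosomal protein genes was not tested.

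**Figure D5:**
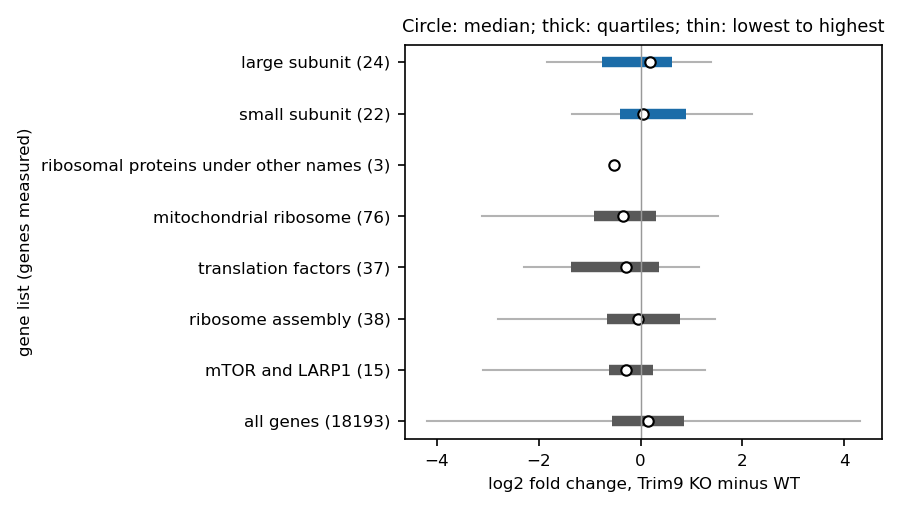
Log2 fold change (Trim9 KO minus WT, horizontal axis) of the genes of 8 lists, with the number of genes measured in brackets; circles are medians, thick bars quartiles and thin lines the lowest to the highest gene. The large and small subunit medians (0.18 and 0.057) lie near that of all genes (0.14), and the medians of the other lists lie between -0.52 and -0.05.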

How the data were processed

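The deposited table holds linear intensities, which the authors scaled on each array; the mean of the probe sets without the lowest and highest 2% was 1500 on every array. For this step the notes of the submitters give MAS5 and the methods RMA, and the scale and unequal medians of the table are those of the former. All 6 columns were used. After 64 control probe sets were left out, 45037 probe sets were compared as log2(intensity + 16) with limma 3.58.1 (lmFit and eBayes, R 4.3.3), two-sided, with no filter and no block, with Benjamini-Hochberg adjustment over all of them (threshold 0.05). Standard errors are those of limma. The fit was tested on simulated data. Genes were named through the platform's annotation: 34945 probe sets name 1 gene, and 932 that name several and 9160 that name none were not assigned. Of 81 protein-coding genes of the symbol pattern in RefSeq, 45 were members, and the remaining member, Rps4l, is named only by the platform. The text names Trim9, the 8 lowest and 8 highest members, members without overlap, up to 4 members of each group by role and up to 4 genes of each other list by limma's statistic; other members are named where a range or a probe set is singled out, after their values were seen. The members, roles and lists were chosen with earlier results of these data known. Exact permutation tests were two-sided. Other settings tried were equal array medians, quantile normalization, leaving out dim probe sets, a replicate block, limma's trend with a robust prior, array weights, a pseudocount of 1 or 64, averaging the probe sets of a gene, no _x_at probe sets and leaving out each array, and, added after the data were examined, the Actb ratio sets as a block and the probe sets that name several genes. The number of arrays limits the precision. A treatment note in the labels that speaks of embryos was not followed, since the tissue is given as adult retina. Tables and figures were made with Python 3.11.15, pandas 2.3.3, scipy 1.17.1 and matplotlib 3.10.9.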

Additional observations from a re-analysis of the deposited data

How the results depend on the processing

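No member passed limma's test under any of the 17 alternatives, and at an unadjusted p under 0.05 at most 4 did (without WT replicate 1). The share of all genes at that level was not counted in that setting, so the 4 are no result about the members. Across all settings 17 of the 27 named members kept 1 sign, and the lowest adjusted p of any of them was 0.618. Members with every KO array below every WT array numbered 1, but 2 after quantile normalization, when the probe sets of a gene were averaged or without _x_at probe sets, and 1 to 5 when an array was left out (5 and 2 without WT replicates 1 and 2, and 3, 2 and 4 without Trim9 KO replicates 1, 2 and 3). Over all genes the number was 525, and 632, 485 and 555 under the first 3 of these settings and 1960, 820, 1275, 1007 and 1493 without those arrays. Those with every KO array above numbered 1, but 2 after quantile normalization, 0 with equal array medians and 1 to 10 when an array was left out (10 and 4 without WT replicates 1 and 2, and 3 and 5 without Trim9 KO replicates 1 and 3). Over all genes the number was 974, and 983 and 666 under the first 2 settings and 2240, 2674, 1962 and 2450 without those arrays. Leaving out an array moved the members' median log2 fold change to between -0.036 and 0.58 and the large minus small subunit median to between -0.58 and 0.39, and the latter was -0.75 with the Actb ratio sets as a block. Averaging the probe sets of a gene turned the sign of Rps9 (-1.40), Rps18 (-0.31), Rpl35 (-0.027) and Rpl22 (-0.36), and leaving out _x_at probe sets that of Rps9 (-3.12), Rps18 (-0.85) and Rpl35 (-2.30). Array weights turned Rplp2 (0.14) and Rps27l (0.40), and the Actb block Rps4l (0.38) and Rpl38 (-0.44). With single arrays left out, Rps4l ran from -2.20 to 0.74, Rplp2 from -0.77 to 0.73, Rps29 from -0.051 to 1.64, Rps7 from -1.01 to 0.20, Rpl38 from -0.29 to 1.58 and Rps27l from -0.94 to 0.81. The cause was not tested. The deviations of same-numbered WT and KO samples had r of -0.23, -0.081 and 0.033 for replicates 1, 2 and 3. Arrays this unlike within a genotype cannot show by such values whether the numbers pair littermates, and the pairing is not known. With the replicate block 0 members passed and the median stayed at 0.10. With a median standard error of 1.06 over all genes on the log2 scale, no gene of the array passed, although log2 fold changes ran from -4.20 to 4.32.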
